A study of Homo sapiens with 16 samples.

Results

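FOXB1 Het cells were compared with wild-type cells at day 3 of neural crest induction, across all genes with a level of at least 1 FPKM (fragments scaled to transcript length and library total) in either group. Of 23284 genes in the authors' deposited table, 13722 met that rule, and 13597 of these carried a test. The gene just inside the level rule was PCDHA9, at 1.001 FPKM in wild type and 0.996 FPKM in Het. The gene just outside it was ARHGAP4, at 0.9999 FPKM in wild type and 0.389 FPKM in Het. The cells were WA01 human embryonic stem cells, an established line, plated at 20000 per cm2 in medium with the WNT agonist CHIR99021 at 3 µM. Y-27632 (10 µM), which inhibits ROCK, was in the medium for the first 2 days. The wild-type group was isogenic wild type at day 3, the stage the labels call pre-neural crest. The Het group was the sgRNA-Het line at the same day, edited by CRISPR/Cas9 with a single guide RNA at the translational start of FOXB1. The KO line (sgRNA-KO) was made in the same way and is used below for values at day 3. Values at day 5, labelled neural crest, come from the same wild-type and Het genotypes under the same treatment.

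The labels give 2 Het libraries per day and 4 wild-type libraries per day from 2 isogenic lines, and the table holds 1 value per gene and group. Which wild-type libraries entered the wild-type group is not stated in the table. The labels name 1 Het line, so the edit and the history of that line cannot be told apart. Nothing in the labels says that replicates were separate inductions, so the deposited p-values measure the spread between these libraries, which may be technical. No value per library was at hand, so library depth is unknown. In bulk RNA, fewer cells of a type and less RNA per cell cannot be told apart.

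FOXB1 is a forkhead transcription factor of the early neural plate and caudal brain. The neural crest arises at the border between neural plate and surface ectoderm, where WNT, BMP and FGF signals induce border factors such as PAX3, PAX7, MSX1 and TFAP2A before crest cells leave the epithelium. In culture, activation of WNT signalling by a GSK3 inhibitor takes pluripotent cells along a similar path within days.

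The guide was directed at the first codon, so the start of the FOXB1 coding sequence is shown, with the start codon in capitals (GENCODE 29 transcripts, GRCh38, chr15:60004964-60005053, plus strand, within the coding exon).
FOXB1 coding start: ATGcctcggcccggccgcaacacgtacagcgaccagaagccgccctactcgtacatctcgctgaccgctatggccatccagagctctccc
The messenger of FOXB1, which the table places on chromosome 15 from 60296421 to 60298142 (hg19), reached 18.3 FPKM in the wild-type group, 7.73 FPKM in the Het group and 15.5 FPKM in the KO group. The fall in Het had a log2 change of -1.25 and a Cuffdiff q of 0.0117 in the authors' deposited table. Its standard error (SE), implied by the test score, was 0.58. For a typical gene such SEs are wider than the deposited p-values imply. The difference between KO and Het was not called there (log2 KO over Het 1.00, q = 0.116). Messenger levels after an edit at the start codon are no readout of the protein.

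A gene is said to have risen or fallen where its q-value, as given in the authors' deposited table, was below 0.05. In Het, 226 genes rose (1.66% of those tested) and 658 fell (4.84%), 884 genes in all (6.50%). The median log2 change of expressed genes was -0.04, with quartiles of -0.39 and 0.21, and the median SE of a tested gene was 0.51. Among the rises, 196 were at least 2-fold and 72 at least 4-fold. Among the falls, 474 were at least 2-fold and 86 at least 4-fold. Of the 489 small RNA features, whose transcripts are too short for a stable FPKM, 1 was called, and 5 called genes lay on chromosome Y.

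**Figure D1:**
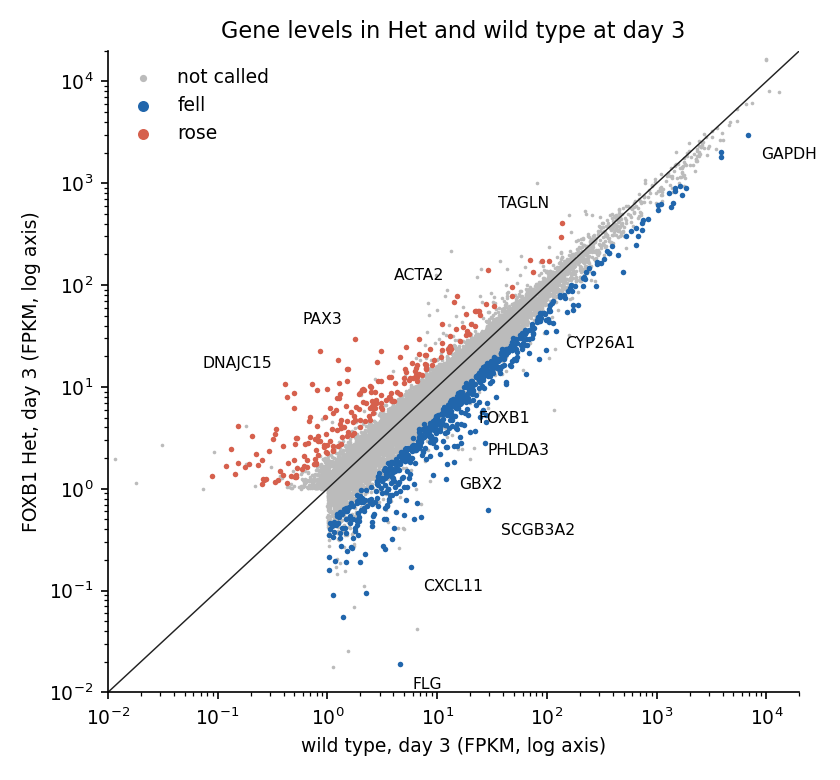
Level of each expressed gene outside chromosome Y that was above 0 in both groups, in wild type (x axis) and Het (y axis) at day 3, in FPKM on log axes. Points are genes; red genes rose, blue genes fell, grey genes were not called, and the line marks equal levels. PAX3 and DNAJC15 lie far above the line, FLG and SCGB3A2 far below it, and highly expressed genes that fell, such as GAPDH, lie close beneath it.

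Features of the libraries that moved with the comparison come first. The log2 changes fell with the GC content of the transcripts (Spearman -0.59 across 12620 genes; genes are no independent replicates). The median was 0.22 in the 20% of genes with the lowest GC content (up to 43.0%) and -0.52 in the 20% with the highest (58.69% or more). At day 5 the relation ran the other way (Spearman 0.41 across genes). Centring the changes inside each of 20 GC bins and remaking the calls gave 290 rises and 372 falls, beside 226 and 658 as deposited. Calls remade in the same way with no centring already outnumbered the deposited calls. The difference between these counts is thus not the effect of centring alone. Of the original calls, 198 rises and 286 falls were made again. The part of GC content in any single result was not tested, and calls that centring ends are given beside the genes named.

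Genes of chromosome 12 were lower in Het along the whole chromosome. Its 715 expressed genes had a median log2 change of -0.53, and 90.07% of them lay below 0. The deposited test called 150 of them lower (20.98%) and 10 higher, so that chromosome 12 held 22.8% of all falls with 5.41% of the tested genes. The 7 windows of 20 Mb on chromosome 12 had GC-centred medians between -0.57 and -0.50, and the 147 windows on other chromosomes between -0.18 and 0.21. As deposited, the medians were -0.71 to -0.35 on chromosome 12 and -0.61 to 0.44 elsewhere. At day 5 the median of chromosome 12 was -0.27, or -0.22 centred by GC. In KO over Het at day 3 it was 0.02. Chromosome 19, where GC-rich genes are dense, had a median of -0.30 that became 0.02 within GC bins. Without chromosome 12, 216 genes rose and 508 of 12862 fell (3.95%). Another stretch was shifted in KO over Het at day 3. The windows of chromosome 1 from 140 Mb onward had medians of 0.51 to 0.61 in that comparison. Its windows starting at 0 to 100 Mb had medians of -0.12 to 0.025. PHLDA3, LMX1A, FLG and S100A6, given below with KO values, are among the genes of the shifted stretch, and their KO values include that shift. DNA was not measured here, and genes of chromosome 12 are marked as such below.

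**Figure D2:**
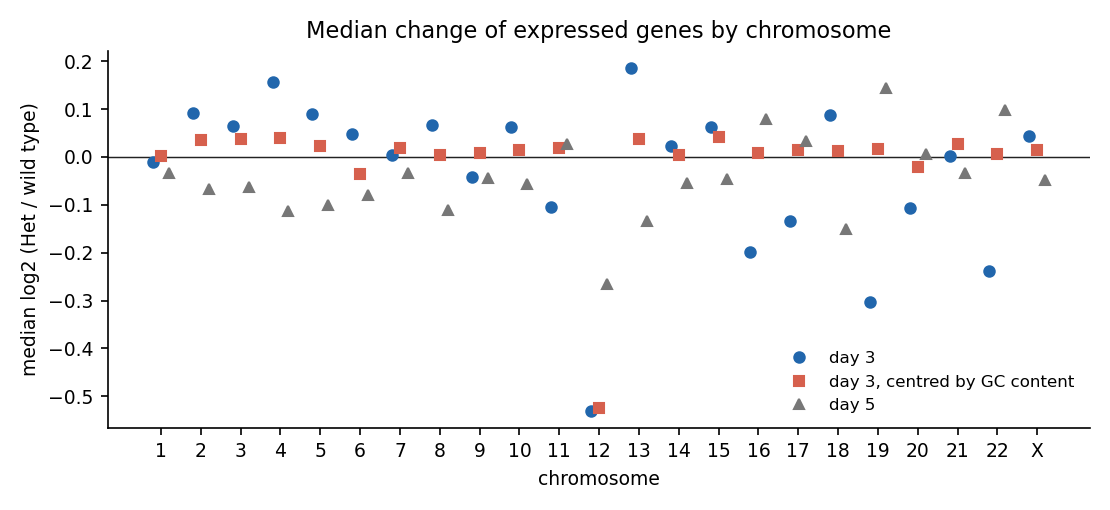
Median log2 change, Het over wild type, of the expressed genes of each chromosome (x axis, chromosomes 1 to 22 and X) at day 3 as deposited (circles), at day 3 centred by GC content (squares) and at day 5 (triangles). Chromosome 12 lies at -0.53, or -0.52 centred by GC, while the GC-centred medians of the other chromosomes lie between -0.04 and 0.04.

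The targets of p53 were lower in Het almost without exception. p53 is the transcription factor that answers DNA damage and other stress by switching on genes for cell cycle arrest, DNA repair and cell death. Of 44 tested targets, 20 fell and 0 rose by Cuffdiff (0 higher and 30 lower at an unadjusted p under 0.05). Of all 46 members with a level above 0, 44 were lower in Het and 2 higher. Their median log2 change was -0.83, beside -0.03 for all genes above 0, and -0.80 within GC bins. Without members on chromosome 12, 17 of 39 fell and 0 rose.

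PHLDA3, an inhibitor of AKT, was at 22.2 (wild type), 3.71 (Het) and 11.2 (KO) FPKM (log2 Het over wild type -2.58, SE 0.56). CDKN1A, which encodes the cell cycle inhibitor p21, was at 34.1, 8.03 and 24.1 FPKM (-2.08, SE 0.48). FDXR, a mitochondrial ferredoxin reductase, was at 28.2, 6.92 and 12.1 FPKM (-2.03, SE 0.50). By group level, each of these targets was thus lowest in Het and highest in wild type, with KO between them. Not every step of that order was called by Cuffdiff. FDXR was not called in KO over Het (0.81, q = 0.189). CDKN1A (-0.50, q = 0.328) and PHLDA3 (-0.98, q = 0.0548) were not called in KO over wild type. DRAM1, a regulator of autophagy on chromosome 12, was at 5.63, 1.40 and 4.21 FPKM (-2.01, SE 0.58). The other 16 that fell ranged from BBC3, a pro-apoptotic BCL2 family member (9.84 to 2.59 FPKM), to TRIAP1 on chromosome 12 (93.2 to 53 FPKM). They included the death receptor TNFRSF10A, the repair gene DDB2, the pro-apoptotic gene BAX (213 to 96.9 FPKM) and the p53 antagonist MDM2 (chromosome 12, 32.0 to 15.4 FPKM). Within GC bins the falls of AEN, BAX and SERTAD1 were no longer called.

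**Figure D3:**
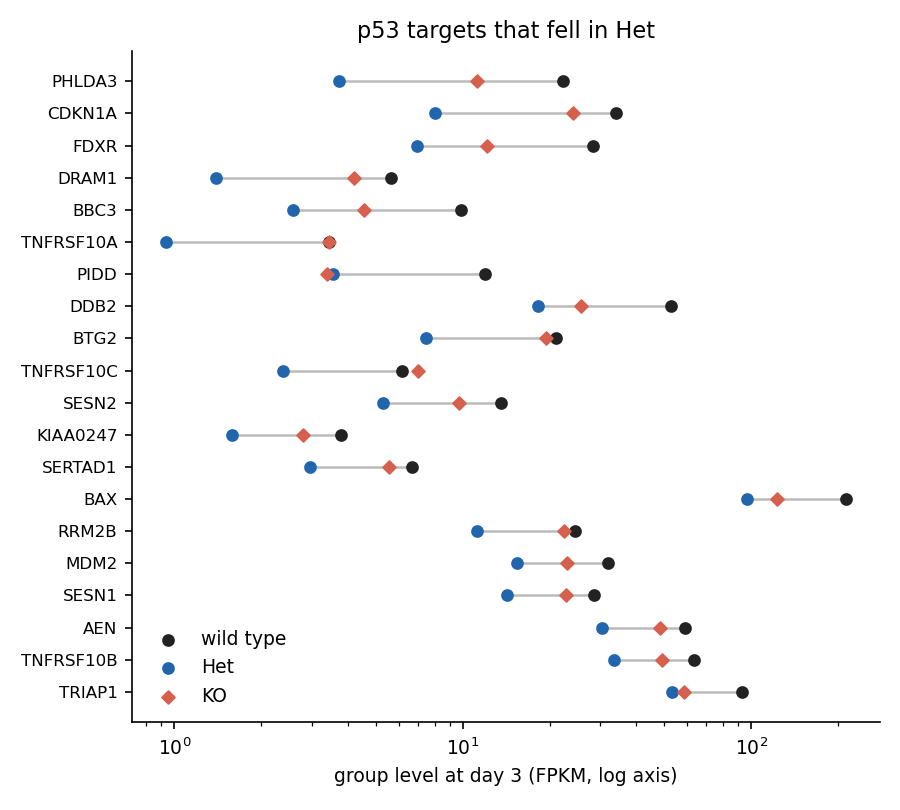
Levels of the 20 p53 targets that fell in Het, 1 row per gene, in wild type (black circles), Het (blue circles) and KO (red diamonds) at day 3, in FPKM on a log axis. Grey lines join wild type and Het. Most KO values lie between the other groups, PIDD is as low in KO (3.37 FPKM) as in Het (3.54 FPKM), and TNFRSF10C is higher in KO (7.01 FPKM) than in wild type (6.16 FPKM).

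MDM4, an inhibitor of p53, was at 11.1 FPKM in wild type and 9.89 FPKM in Het and was not called by Cuffdiff (-0.17, SE 0.42). In the direct comparison of KO with Het, which shares the Het group, 8 of 45 tested p53 targets were higher in KO and 0 lower in the authors' deposited table. Over all tested genes of that comparison 2.88% were called, 2.33% higher and 0.553% lower. CDKN1A was higher in KO (log2 KO over Het 1.59), as were PHLDA3 (1.60), DRAM1 (1.59) and TNFRSF10A (1.87). At day 5, 9 of 44 tested targets fell in Het and 0 rose, with a median of -0.58. The background at day 5 was 2.19% called, 1.06% falls and 1.12% rises.

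The promoters of p53 targets can carry the element that p53 binds, and windows with such a match are shown for targets that fell. Windows of 300 bases, from 250 before to 50 after each annotated start, were taken from RefSeq (GRCh38.p14). They were searched for the 20-base consensus p53 response element with at most 3 mismatches and intact C and G in both CNNG cores. The consensus reads the same on both strands. Of all 35116 windows, 1.12% held a match, and of 9191 tested expressed genes with a window, 1.62% did. Among the 32 tested p53 targets with a window, 10 held one, 5 of 13 that fell and 5 of 19 not called (FAS, PMAIP1, GDF15, TRIM32 and RPS27L). With A or T also required inside both cores, the counts were 2 of 13 and 4 of 19, beside 0.427% of all windows and 0.544% of tested expressed genes. A match thus stood in promoters of targets that fell and of targets that were not called. Capitals mark the matched 20 bases.
DDB2, chr11:47214964-47214993, plus strand: gctccAAGCTGGTTTGAACAAGCCCtgggc
MDM2, chr12:68808918-68808947, plus strand: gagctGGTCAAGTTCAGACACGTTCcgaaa
AEN, chr15:88621301-88621330, plus strand: gagccGGGCTTGCCCGGGCATGTGGgagct
SESN1, chr6:109009013-109009042, minus strand: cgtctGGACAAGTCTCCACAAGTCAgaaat
FDXR, chr17:74872991-74873020, minus strand: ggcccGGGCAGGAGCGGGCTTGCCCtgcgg
The DDB2 site had 1 mismatch to the consensus, those of MDM2 and AEN had 2, and those of SESN1 and FDXR had 3. A match is a description of these letters and not a measured binding site.

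Most tested genes that pattern the front of the neural tube rose. In the embryo, OTX factors mark forebrain and midbrain, GBX2 and HOX genes mark hindbrain and more caudal tissue, and WNT1, EN1 and PAX2 mark the midbrain and its border with the hindbrain. Of 13 tested anterior genes, 9 rose and 0 fell by Cuffdiff (0 lower at an unadjusted p under 0.05). OTX1 was at 0.132 (wild type), 2.43 (Het) and 0.451 (KO) FPKM (4.21, SE 0.92). LMX1A, a roof plate and midbrain factor, was at 0.723, 10.7 and 16.8 FPKM (3.88, SE 0.62). PAX2 was at 1.27, 7.80 and 10.6 FPKM (2.62, SE 0.62). OTX1 was therefore highest in Het, while LMX1A and PAX2 were highest in KO. EN1, DMBX1, OTX2, LHX5, LMX1B and WNT1 rose with log2 changes between 2.11 (EN1) and 1.31 (WNT1), and LHX5 and WNT1 lie on chromosome 12. In KO over Het, OTX1 (-2.43) and WNT1 (-1.01) were lower, and the other 11 tested members were not called. At day 5, 6 of 9 tested members rose.

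Posterior genes had 3 falls and 0 rises among 9 tested, with 2 higher and 4 lower at an unadjusted p under 0.05. GBX2 was at 12.3 (wild type), 1.74 (Het) and 6.08 (KO) FPKM (-2.81, SE 0.73). HOXA2, a hindbrain HOX gene, was at 2.77, 0.960 and 1.27 FPKM (-1.53, SE 0.75). CYP26A1, an enzyme that degrades retinoic acid, was at 113, 42.0 and 23.7 FPKM (-1.43, SE 0.44), and it is counted again among the retinoic acid genes below. At day 5 the changes of all 3 were small and uncalled, from -0.48 for GBX2 to -0.14 for CYP26A1.

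**Figure D4:**
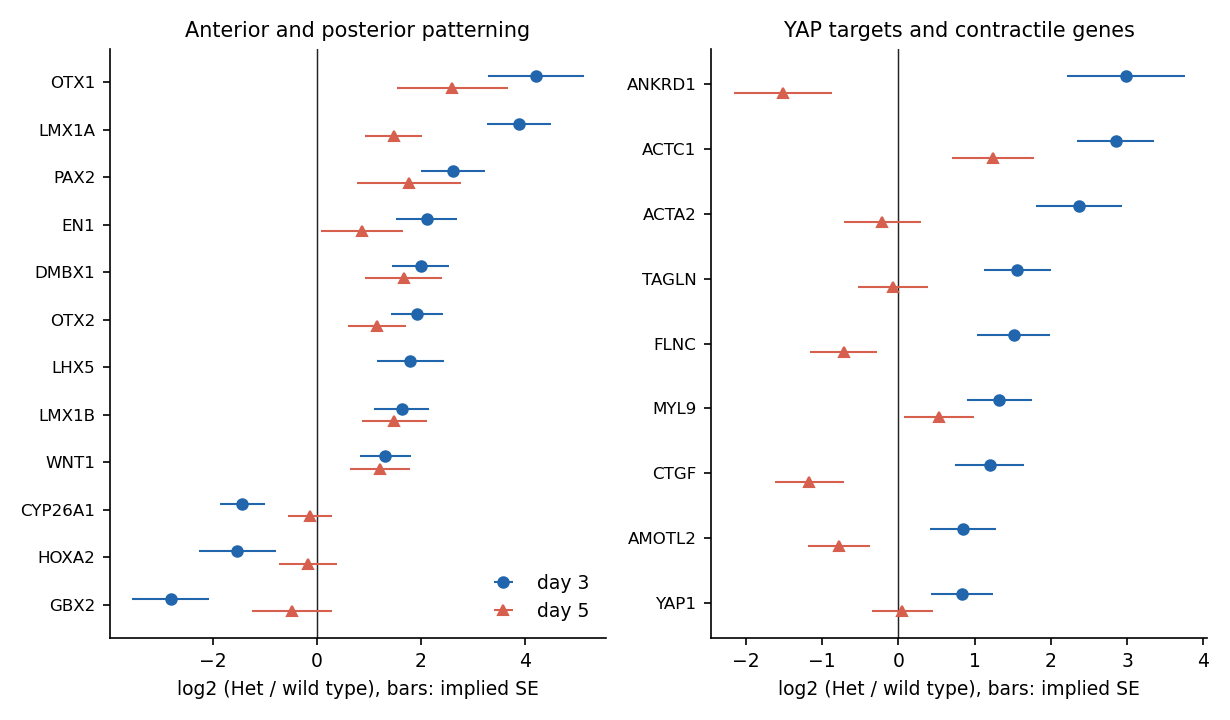
Log2 change, Het over wild type, of the called anterior and posterior patterning genes (left) and of the called YAP target and contractile genes (right), at day 3 (circles) and day 5 (triangles), with bars for the SE implied by the test scores. LHX5 carries no test at day 5 and has no triangle. The anterior genes lie above 0 at both days, whereas ANKRD1, CTGF, AMOTL2 and FLNC lie above 0 at day 3 and below 0 at day 5. ACTA2 and TAGLN also lie above 0 at day 3, and just below 0 at day 5 (-0.21 and -0.07).

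Genes along the dorsoventral axis of the neural tube changed in both directions, 6 rising and 3 falling of 17 tested. Sonic hedgehog patterns the ventral tube through PTCH receptors and GLI factors. HHIP, which binds hedgehog ligands, was at 0.179 (wild type), 1.65 (Het) and 2.39 (KO) FPKM (3.20, SE 0.91). CDON, a hedgehog co-receptor, was at 6.84, 29.9 and 28.7 FPKM (2.13, SE 0.43). The co-receptors BOC (1.24) and GAS1 (1.24), the ligand release factor DISP1 (0.96) and the transcription factor GLI3 (1.34) rose as well. GLI1, a target of hedgehog signalling on chromosome 12, was at 7.43, 2.28 and 4.67 FPKM (-1.70, SE 0.56). OLIG3, a dorsal progenitor factor, was at 12, 1.23 and 7.45 FPKM (-3.28, SE 0.70) and higher in KO than in Het (2.59). DBX1 fell (-1.39, SE 0.61) but was not called within GC bins (-0.59).

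Retinoic acid, made from vitamin A, posteriorises neural tissue and is cleared by CYP26 enzymes. Of 16 tested genes of its pathway, 5 fell and 1 rose. DHRS3, which reduces retinaldehyde, was at 2.65 (wild type), 0.559 (Het) and 2.46 (KO) FPKM (-2.25, SE 0.76). RARB, a receptor and a known target of retinoic acid, was at 16.6, 4.30 and 1.81 FPKM (-1.95, SE 0.52). CYP26C1 (74.4 to 33.4 FPKM) and RARG (chromosome 12, 30.6 to 16.3 FPKM) fell but were not called within GC bins. NR2F1, an orphan nuclear receptor of the crest, was at 1.23, 7.76 and 3.51 FPKM (2.65, SE 0.63). DHRS3 was higher in KO than in Het (2.14), whereas RARB was lower still in KO (-1.25).

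Several border factors rose, with 4 rises and 2 falls among 12 tested members of the ZIC, TFAP2 and border list. MSX1 was at 0.812 (wild type), 9.42 (Het) and 13.4 (KO) FPKM (3.54, SE 0.68). TFAP2A was at 0.338, 3.85 and 14.6 FPKM and was higher in KO than in Het (log2 KO over Het 1.93). Of 17 tested genes of the SOX and PAX families, 3 PAX genes rose, 3 SOX genes fell and 11 were not called. PAX7 was at 0.494, 8.80 and 14.4 FPKM (4.15, SE 0.63). SOX3 was at 16.5, 2.81 and 2.04 FPKM (-2.55, SE 0.58), SOX1 at 25.9, 5.63 and 2.52 FPKM, and SOX21 at 47.3, 16.2 and 11.3 FPKM, all neural progenitor factors. Of 17 tested genes of crest specification and epithelial-mesenchymal transition, NR2F1 and ETS1 rose and 0 fell (0 lower at an unadjusted p under 0.05), and the rise of ETS1 was not called within GC bins. FOXD3, a crest specifier, was at 0.0313 FPKM in wild type and 2.71 in Het, but was not called (q = 0.576 in the authors' deposited table). In the forkhead family FOXI3, a placode factor, was at 5.29, 1.05 and 5.12 FPKM (-2.33, SE 0.75). It was 1 of 3 falls, with FOXB1 and FOXM1 (chromosome 12), among 18 tested forkhead genes, and FOXM1 was not called within GC bins.

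Several targets of YAP and genes of the contractile cytoskeleton rose at day 3. YAP is a coactivator that enters the nucleus when cells spread or sense tension. Of 26 tested members, 9 rose and 0 fell by Cuffdiff (14 higher and 0 lower at an unadjusted p under 0.05). ANKRD1 was at 0.294 (wild type), 2.34 (Het) and 0.875 (KO) FPKM (2.99, SE 0.77). ACTC1, cardiac alpha actin, was at 3.10, 22.4 and 30.7 FPKM (2.85, SE 0.50). ACTA2, smooth muscle alpha actin, was at 15.1, 78.5 and 44.5 FPKM (2.37, SE 0.57). TAGLN, an actin-binding protein of smooth muscle, was at 137, 404 and 246 FPKM (1.56, SE 0.44). FLNC, MYL9, CTGF, AMOTL2 and YAP1 rose by smaller amounts, down to 0.83 for YAP1. At day 5, 1 of 28 tested members rose and 6 fell, and the list median was -0.26 after 0.60 at day 3. CTGF was at 24.2 and 55.5 FPKM at day 3 and had a log2 change of -1.17 at day 5.

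Cell adhesion genes are given by family. Among 22 tested cadherins and protocadherins, 7 rose and 1 fell. PCDH10 was at 0.0889 (wild type), 1.35 (Het) and 2.22 (KO) FPKM (3.92, SE 0.93). CDH6, a cadherin of the crest, was at 1.00, 9.55 and 10.7 FPKM (3.25, SE 0.50), and PCDH7 (2.31) and CDH9 (2.18) followed. The fall of PCDH8 (-1.08) was not called within GC bins. In contrast, 6 of 14 expressed genes of the clustered beta protocadherins on chromosome 5 fell (42.86%) and 0 rose. That cluster was singled out after its values were seen, and its near-identical copies make the counting of reads uncertain. PCDHB3 was at 6.24, 1.79 and 4.8 FPKM (-1.80, SE 0.59), and PCDHB12 at 3.05, 1.02 and 1.12 FPKM (-1.59, SE 0.63). Collagens were mixed, with COL14A1 (1.71), COL2A1 (chromosome 12, 1.03) and COL1A2 (0.98) rising, and COL6A1, COL7A1 and COL18A1 falling. None of the 3 falls was called within GC bins. TNC, a matrix protein of migrating crest, was at 2.46, 10.3 and 8.80 FPKM (2.06, SE 0.47). It was the 1 rise among 19 tested integrins, laminins and related matrix genes, beside 3 falls, of which NID2 (-1.49, SE 0.48) had the largest change and ITGA7 (chromosome 12) and LAMA5 were not called within GC bins.

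Of 37 tested axon guidance genes, 7 rose and 4 fell. UNC5C, a netrin receptor, was at 0.236 (wild type), 1.71 (Het) and 1.5 (KO) FPKM (2.86, SE 0.69). EPHA7, an ephrin receptor, was at 2.86, 17.4 and 16.9 FPKM (2.60, SE 0.46). SEMA3A, a secreted repellent, was at 2.1, 9.61 and 13.5 FPKM (2.19, SE 0.48). ROBO3 (2.14), of the roundabout receptor family, and SLIT2 (2.02), a secreted guidance protein, rose as well. NRP1, a semaphorin co-receptor, was at 9.26, 2.84 and 1.17 FPKM (-1.70, SE 0.57). SEMA3A thus rose where NRP1 fell. The other falls, EPHB3, PLXNA1 and PLXNB1, were not called within GC bins.

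Among receptors and ligands of other pathways, the neurotrophin receptor NTRK2 was at 28.0 (wild type), 4.47 (Het) and 6.54 (KO) FPKM (-2.65, SE 0.47). EDN1, endothelin 1, was at 0.118, 1.69 and 1.87 FPKM (3.83, SE 0.96), and its receptor EDNRA at 1.23, 3.82 and 2.12 FPKM (1.63, SE 0.60). EGFR was at 4.93, 1.30 and 7.19 FPKM (-1.93, SE 0.60) and higher in KO than in Het (2.47). PAPPA, a protease that frees IGF from its binding proteins, was at 0.683, 4.60 and 13.6 FPKM (2.75, SE 0.53). IGFBPL1, IGFBP5 and IGFBP2 fell with log2 changes from -1.13 to -0.73, and none of these 3 was called within GC bins. Among 15 tested genes of the IGF list PAPPA was the 1 rise and 4 fell, of which 1 kept its call within GC bins. Of 8 tested genes of the EGF receptor family 1 rose and 1 fell. Of 9 tested neurotrophin and endothelin genes 2 rose and 2 fell. EDN1 and PAPPA were high in both edited lines, whereas EGFR was lowest in Het. In the NODAL and TGF-beta list INHBE (chromosome 12, -1.62) and TGFBR3 (-1.08) fell among 18 tested members, and 0 rose (2 higher and 3 lower at an unadjusted p under 0.05).

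Some genes of innate immunity and the epidermal gene FLG were nearly silent in Het. Of 26 tested interferon and cytosolic sensing genes, 5 fell and 1 rose. The median log2 change of these 26 was -0.24, or -0.007 within GC bins. Of all 45 members above 0, 17 were higher and 28 lower in Het. CXCL11, a chemokine induced by interferon, was at 5.72 (wild type), 0.172 (Het) and 0.0791 (KO) FPKM (-5.05, SE 1.05). MB21D1, the cytosolic DNA sensor cGAS, was at 2.23, 0.0955 and 1.76 FPKM (-4.55, SE 1.28). TRIM22 was at 24.3, 5.11 and 17.1 FPKM (-2.25, SE 0.49), and IFI6 at 22.8, 6.70 and 3.42 FPKM (-1.77, SE 0.60). HERC5 also fell (-1.38), whereas IFI16 rose (1.5). HLA-C, HLA-B and HLA-DRA fell among 16 tested antigen presentation genes and 0 rose (0 higher and 4 lower at an unadjusted p under 0.05). The table places these HLA genes on an alternative haplotype of chromosome 6, so their counting is uncertain, and HLA-B and HLA-C were not called within GC bins. Of 12 tested epidermal and S100 genes, FLG and S100A6 fell and 0 rose (1 higher and 2 lower at an unadjusted p under 0.05). The median log2 change of these 12 was -0.24, or 0.02 within GC bins. FLG, filaggrin of the epidermis, was at 4.63 (wild type), 0.0190 (Het) and 0.394 (KO) FPKM (-7.93, SE 0.91). S100A6, a calcium-binding protein, was at 7.14, 0.524 and 5.05 FPKM (-3.77, SE 1.13). SCGB3A2, a secretoglobin of the airway, was at 29.3, 0.613 and 28.8 FPKM (-5.58, SE 1.00). S100A6 (log2 KO over Het 3.27) and SCGB3A2 (5.55) were higher in KO than in Het, MB21D1 was not called in that comparison, and CXCL11 was at a low level in both edited lines.

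Genes that were switched on or off, under 0.1 FPKM in a group and at least 2 FPKM in the other, numbered 16, of which 4 were called, FLG, MB21D1, GNG8 and SNAR-C3. GNG8, a G protein gamma subunit, was at 8.91 FPKM in wild type and listed at 0 in Het and in KO. Of the switched genes, 8 are small SNAR RNAs of chromosome 19, near-identical copies whose counting is uncertain. ZNF560, a zinc finger gene on chromosome 19, was at 6.54 (wild type), 0.0418 (Het) and 0.0307 (KO) FPKM but was not called (q = 0.0748 in the authors' deposited table). Other large falls among called genes included SMOC2 (-3.72), KCNJ8 (chromosome 12, -3.63), ZNF354C (-3.59), ERVMER34-1 (-3.56) and SPINK5 (-3.26). ZNF354C was at 3.90, 0.323 and 6.02 FPKM, and ERVMER34-1, an endogenous retroviral envelope gene, at 3.22, 0.274 and 4.38 FPKM. Both were thus lowest in Het, and both were higher in KO than in Het (4.22 and 4.0). DNAJC15, a mitochondrial co-chaperone, went the other way, at 0.413, 10.7 and 4.51 FPKM (4.70, SE 0.64), and was lower in KO than in Het (-1.25).

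Calls in the metabolic lists were mostly falls, as they were over all tested genes (4.84% falls and 1.66% rises). Of 34 tested glycolysis and hypoxia genes, 6 fell and 0 rose by Cuffdiff (0 higher and 13 lower at an unadjusted p under 0.05). SLC16A3, a lactate exporter, was at 9.19 (wild type), 1.38 (Het) and 2.15 (KO) FPKM (-2.74, SE 0.66). ENO2, GAPDH and TPI1 lie on chromosome 12, and without that chromosome 3 of 29 tested members fell. GAPDH, at 6848 FPKM in wild type and 3002 in Het (-1.19, SE 0.54), was the called gene of highest level and lost its call within GC bins, as did PFKL and ALDOA. At day 5, 12 of 35 tested members fell and 0 rose. Of 31 tested genes of the ATF4 and endoplasmic reticulum stress response, 9 fell and 1 rose, the cystine transporter SLC7A11 (0.86, not called within GC bins). CHAC1, which degrades glutathione, was at 7.81, 2.52 and 2.97 FPKM (-1.63, SE 0.61). VLDLR was at 19, 5.27 and 2.63 FPKM (-1.85, SE 0.52), and SHMT2 of chromosome 12, an enzyme of mitochondrial one-carbon metabolism, fell by 1.61 on the log2 scale. At day 5, 0 members of this list rose or fell in the authors' deposited table. Of 36 tested oxidative phosphorylation genes 3 fell, COX6A1 and ATP5B of chromosome 12 and ATP5D, and of 27 cholesterol synthesis and lipid genes 1 rose (HMGCS1) and 2 fell, among them the fatty acid synthase gene FASN. Within GC bins ATP5D (-0.67), HMGCS1 (0.55) and FASN (-0.002) were not called.

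Genes of cytosolic ribosomal proteins leaned lower. Of 81 tested, 9 fell (11.11%) and 0 rose, and 86.42% lay below 0, with a median of -0.29 (-0.23 within GC bins). RPLP1 was at 3861 (wild type), 1813 (Het) and 1682 (KO) FPKM (-1.09, SE 0.40), and RPLP2 at 1697, 767 and 770 FPKM (-1.15, SE 0.39). RPL36 and RPS19 were among those that lost their calls within GC bins, and RPLP0 lies on chromosome 12. Processed pseudogenes can share reads with these genes. At day 5 the ribosomal median was 0.05. The 53 expressed histone genes named HIST had a median of -1.13 at day 3 and 0.67 at day 5, with 1 fall and 0 rises at day 3. Most histone messengers lack the poly-A tail by which these libraries were selected.

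Other groups held few or no calls. No gene was called by Cuffdiff among 24 tested genes of DNA methylation and Polycomb complexes (0 higher and 1 lower at an unadjusted p under 0.05), 22 of heat shock and oxidative stress (0 and 2), 6 metallothioneins (0 and 1) and 6 germline genes (1 and 2). DNMT3B, a DNA methyltransferase, was at 73.3 FPKM in wild type and 61.5 in Het, and EZH2 of Polycomb at 66.0 and 72.9 FPKM. Of 43 tested cell cycle genes, CCND2 and CDKN1B of chromosome 12 and CDT1 fell, and CDK6 rose (0.792 to 2.42 FPKM, 1.61, SE 0.54). CDT1 was not called within GC bins. HMGA1 was the 1 fall among 16 tested genes of the MYC and LIN28 list and BOK the 1 fall among 16 of the BCL2 family, and neither was called within GC bins. Of 26 imprinted genes PEG10 rose (0.85) and DLK1 (151 to 54.4 FPKM, -1.47) and NNAT fell, the fall of NNAT not being called within GC bins. Of 17 neuronal and secretory genes GAP43 (1.49), POU4F1 and ELAVL2 rose and SCG2 (-4.68) and TUBB3 fell, the fall of TUBB3 (-0.84) not being called within GC bins (-0.26).

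Markers of the expected and of other cell types were summed in each group. The 8 neural plate border markers summed to 76.6 FPKM in wild type and 119 in Het, with 5 rises. The 8 neural progenitor markers summed to 385 and 238 FPKM, with 3 falls (SOX1, SOX3 and DBX1) and 1 rise (LHX5). The 8 pluripotency markers summed to 618 and 557 FPKM, mostly LIN28A (465 and 457 FPKM), while POU5F1 and PRDM14 fell. POU5F1 is placed on the same alternative haplotype of chromosome 6 as the HLA genes above, so its counting is uncertain. Migratory crest markers were low, at 15 and 21.8 FPKM in sum, and the defining marker SOX10 was at 0.455 and 0.773 FPKM. The 8 endoderm markers summed to 8.64 and 21.3 FPKM, of which CXCR4, the 1 member to reach 1 FPKM, rose from 7.92 to 20.8 FPKM, and SOX17 was at 0 in wild type and 0.0145 FPKM in Het. Of 8 mesoderm markers KDR was the 1 to reach 1 FPKM, and it rose from 0.971 to 3.45 FPKM. The fibroblast and mesenchyme markers summed to 20.1 and 28.3 FPKM, and the neuron markers to 168 and 108 FPKM, with TUBB3 the highest, whose fall was not called within GC bins. The surface ectoderm markers summed to 40.5 and 32.8 FPKM, with 1 fall (EPCAM, 3.94 to 1.47 FPKM). Most of that sum was KRT18 of chromosome 12 (34.2 and 30.4 FPKM), while KRT5 and KRT14 were at or near 0. The endothelium and blood markers summed to 24.9 and 28.9 FPKM, of which TEK, the 1 member to reach 1 FPKM, made up 23.85 and 27.75 FPKM. How far shifts in cell makeup enter the gene changes above was not tested.

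The same comparison at day 5, which shares no group with day 3, called 152 rises (1.12% of 13527 tested genes) and 144 falls (1.06%). Of the day-3 rises, 67 rose again at day 5, which was 29.65% of the day-3 rises and 44.08% of the day-5 rises. Of the day-3 falls, 28 fell again, 4.26% of the day-3 falls and 19.44% of the day-5 falls. The day-3 rises had a median log2 change of 1.5 at day 3 and 0.65 at day 5, and the day-3 falls -1.20 and -0.12. Whether the shares of rises and falls that recurred differ was not tested. DNAJC15 was higher by as much at day 5 (4.87), and PAX7 (3.53) and PCDH10 (3.27) remained far above wild type. NTRK2, EGFR, SOX21, MDM2, RRM2B and SLC16A3 were among the genes lower at both days.

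There were 6 genes that rose at day 3 and fell at day 5, AMOTL2, ANKRD1, CTGF, EDN1, PCDH17 and THBS1, and 6 that did the opposite, APOE, COL18A1, MIF, NDUFS7, OLIG3 and WFIKKN1. These 12 were named after their values were seen. Within GC bins 5 of the first 6 were called in the same directions at both days, and PCDH17 at day 3 and not at day 5. Of the other 6, OLIG3 was called in the same directions at both days. The day-3 falls of APOE (-0.95, or -0.16 within GC bins), COL18A1 (-0.76, or 0.034), NDUFS7 (-1.31, or -0.52) and WFIKKN1 (-1.37, or -0.58) were not called within GC bins, nor were the day-5 rises of COL18A1, MIF and NDUFS7. A direct test of the day-5 change minus the day-3 change over its implied SE, with Benjamini-Hochberg adjustment over 13588 genes, passed for 17 genes. With the SE scaled to the deposited p-values it passed for 186. Of the 17, 10 were higher and 7 lower at day 5, and 7 were small RNA features. For some genes near 0 in a group the implied SE is too small, as described for FLG below.

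**Figure D5:**
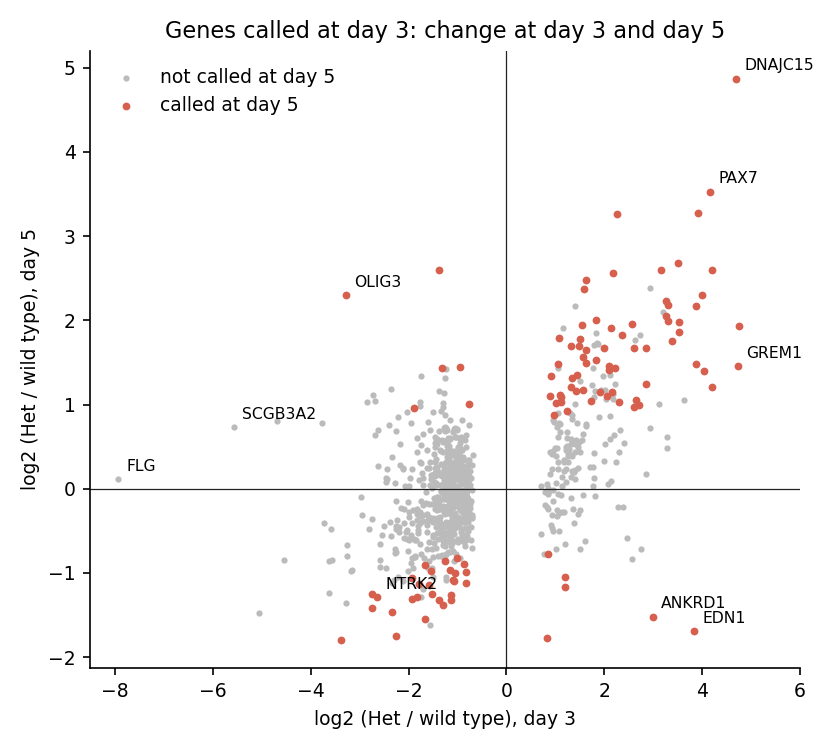
Log2 change, Het over wild type, at day 3 (x axis) and day 5 (y axis) of 875 genes called at day 3 outside chromosome Y with a change at both days. Red genes, 106 of them, were also called at day 5 and grey genes were not. Rises at day 3 spread upward at day 5 while most falls lie around 0, and EDN1 and ANKRD1 lie at lower right.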

How the data were processed

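Poly-adenylated RNA was sequenced, and the submitters' processing notes name TopHat2 2.1.1, hg19 and Cuffdiff 2.2.1. The annotation and filters on libraries were not given in the sources at hand. Deposited by the authors was 1 table of 15 comparisons of 6 groups, with 1 FPKM value per gene and group, the log2 fold change, the test score, the p-value and the q-value, per the file headers. Recomputed Benjamini-Hochberg values over all 222234 tests matched the deposited q-values. The group named HOMO was read as KO.

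Changes were computed as log2 of the ratio of group FPKM, and SEs as that change over the deposited test score. The SEs are thus on the log2 scale. The median ratio of the test score to the score that the deposited p-value implies was 0.618 at day 3 and 0.642 at day 5. The SEs given are thus wider than the deposited p-values imply for a typical gene. For some genes near 0 in a group they are narrower. Medians of lists used log2 of FPKM plus 0.1, over members above 0 in a group. Calls used q below 0.05, status OK and at least 1 FPKM in a group. GC content came from GENCODE 29 transcripts matched by symbol, and GC calls were remade from the deposited p-value limit. The day 5 minus day 3 test used 2-sided normal p-values and was tested on simulated data. The simulated noise was drawn from the same implied SEs, so it cannot show whether those SEs are too small for genes near 0. Python 3.11.15, pandas 2.3.3 and scipy 1.17.1 were used. No set test was run.

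The genes named were FOXB1, the 15 largest rises and falls, up to 4 called members of each of 35 lists or, in a list without calls, up to 2 members of highest level, the 10 called genes of highest level, genes past the day test and switched genes. Where a list's calls are few the others are named too, after their values were seen. Members and lists were chosen with earlier results of these data known. Results for a few genes are not reported here.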

Additional observations from a re-analysis of the deposited data

Results flagged for a closer look

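The Het effect differed between day 3 and day 5 by the direct test in 9 genes other than small RNA features and chromosome Y. Differences are log2 changes at day 5 minus those at day 3, tested by a normal approximation on the SE implied by the deposited test scores and adjusted over 13588 genes. With the SE scaled to the deposited p-values, 186 genes of all kinds passed in place of 17. The adjusted p-values of the 9 lay between 1.81e-10 (FLG) and 0.0411 (GREM1). Cuffdiff gave FLG a day-3 p-value of 0.00015 and SCGB3A2 one of 0.00125. Both are far larger than a normal p-value on their implied SEs. For genes near 0 in Het at day 3 the adjusted p-values of the direct test are therefore too small.

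Lower at day 5 were EDN1 by -5.52 (SE 1.27), ANKRD1 by -4.51 (SE 1.00), PAPPA by -3.46, ANXA1 by -3.41 and GREM1 by -3.28. EDN1 was at 0.118 FPKM in wild type and 1.69 in Het at day 3, and at 1.46 and 0.451 FPKM at day 5. ANKRD1 was at 0.294 and 2.34 FPKM at day 3, and at 11.1 and 3.88 FPKM at day 5. ANXA1, a phospholipid-binding protein, was at 1.06 and 6.26 FPKM at day 3, and at 47.9 and 26.8 FPKM at day 5. In each of these 3 genes Het was above wild type at day 3 and below it at day 5. GREM1, a secreted BMP inhibitor, stayed higher in Het at day 5, at 1.61 and 4.42 FPKM.

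Higher at day 5 were OLIG3 by 5.58 (SE 1.14), SCGB3A2 by 6.31, ZNF560 by 7.04 and FLG by 8.04 (SE 1.07). OLIG3 was at 12 FPKM in wild type and 1.23 in Het at day 3, and at 0.339 and 1.67 FPKM at day 5. FLG was at 4.63 and 0.0190 FPKM at day 3, and at 1.67 and 1.81 FPKM at day 5. SCGB3A2 was at 29.3 and 0.613 FPKM at day 3, and at 1.13 and 1.87 FPKM at day 5. ZNF560 was at 6.54 and 0.0418 FPKM at day 3, and at 2.57 and 2.16 FPKM at day 5. ZNF560 and SCGB3A2 were low in Het at day 3 and near wild type at day 5.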

How the results depend on the processing

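No paired analysis was possible because the deposited table holds group values and no value per library, and for the same reason no replicate could be left out. In place of 884 calls (226 rises, 658 falls), a q below 0.01 gave 446 (153 and 293). At least 5 FPKM in a group gave 138 rises and 479 falls, and GC bins gave 290 rises and 372 falls. Other settings gave 646 calls (adjustment over this comparison alone) to 1021 (calls remade with no centring, chosen after seeing the data). The day difference passed for 17 genes, and for 186 with the SE scaled to the deposited p-values, 14 at 5 FPKM or more and 20 within GC bins. Without scaling 271 had an unadjusted p under 0.05. The median of chromosome 19 turned from -0.30 to 0.016 within GC bins, since the centring removes the trend in which its GC-rich genes lie. Of the named genes, 21 lost their call within GC bins and 3 gained one. FOXB1 was not called at a q below 0.01. List medians moved by more than the median SE for 2 of 35 lists under each of GC bins, a pseudocount of 1 and the FPKM filter. The anterior patterning median was 1.12, 2.21 within GC bins and 0.24 with a pseudocount of 1, and the dorsoventral median was -0.24 and 0.32 within GC bins. The cause of the other differences was not tested. With 2 Het libraries and a median SE of 0.51, changes much under 2-fold were seldom called.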
